A study of Mus musculus with 8 samples.

Results

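The receptors described here are those through which dermal fibroblasts hold collagen, fibronectin and related matrix proteins. The list named 10 genes, the integrin alpha subunits Itga1, Itga5, Itga8, Itga11 and Itgav, the beta subunits Itgb1, Itgb3, Itgb5 and Itgb8, and the collagen receptor kinase Ddr2. Members were all probe sets annotated to exactly 1 of these genes. This gave 20 probe sets of 8 genes, out of 17097 genes with a named probe set in the whole array table. No probe set named here belonged to Itga11 or Itgb8, and both are not analysed here. Of the 8 genes, Itgav and Itgb1 had 5 probe sets each, Itga8, Itgb3, Itgb5 and Ddr2 had 2 each, and Itga1 and Itga5 had 1 each.

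Sorted dermal fibroblasts of 8 mice were profiled, with 1 array for each animal. In the GW9662 group, 4 mice received 150 nmol GW9662 in 300 µl acetone on the back skin 3 times per week for 6 months, starting at 12 months of age. In the vehicle group, 4 mice of the same age received 300 µl acetone alone on the same schedule. GW9662 binds the nuclear receptor PPARG covalently and blocks it, and the comparison asks what its long-term application does to gene expression in fibroblasts of old skin. The labels give neither strain nor sex, and the drug was put on the whole skin, not on fibroblasts alone. The gate took cells that carried CD34 and Pdgfra and lacked CD45, CD117, CD24, CD31 and EpCam. RNA of 5000 sorted cells per animal was amplified over 21 cycles before labelling.

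Integrins are paired receptors of 1 alpha and 1 beta subunit that span the membrane and link the matrix outside to the actin cytoskeleton inside. Itgb1 pairs with Itga1 and Itga11 to bind collagens, with Itga5 to bind fibronectin, and with Itga8 to bind nephronectin and other RGD-containing ligands. Itgav pairs with Itgb1, Itgb3, Itgb5 or Itgb8, binds vitronectin and fibronectin, and through some of these pairs releases active TGF-beta from its latent complex. Ddr2 is a receptor tyrosine kinase that binds fibrillar collagen directly and is typical of mesenchymal cells.

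All levels below are RMA signals on a log2 scale, in which 1 unit is a doubling of signal. A level belongs to its own probe set, and levels of different probe sets are not amounts of transcript that can be set against each other. The table held no detection calls, so whether a dim probe set measured any transcript is not known. As a guide to brightness, the median over all probe sets lay between 4.63 and 4.69 on the 8 arrays. In the sorted cells, 7 of 8 fibroblast markers had a level above that of the median gene (5.271), with Cd34 at 10.66 to 10.75 in GW9662 samples and 10.49 to 10.81 in vehicle samples. The exception was Pdgfra, itself a gate marker, whose named probe set averaged 4.91. Of the immune markers, 0 of 8 lay above the median gene, and Ptprc (CD45) had the lowest level at 2.89. The mean over the keratinocyte markers was 4.79 to 4.92 in GW9662 samples and 4.79 to 4.89 in vehicle samples, and 3 of 9 lay above the median gene. Endothelial markers (3 of 7 above it) averaged 4.96 to 5.24 in GW9662 samples and 4.93 to 5.37 in vehicle samples, and melanocyte and Schwann cell markers (2 of 5) averaged 5.17 to 5.34 in GW9662 samples and 5.18 to 5.35 in vehicle samples. Single genes of these lists were brighter than the means. The endothelial Kdr stood at 7.26 to 8.12 in GW9662 samples and 6.72 to 8.58 in vehicle samples. Mitf, of the melanocyte list, averaged 8.28, and the keratinocyte Krt10 averaged 6.94. Vehicle 4 stood apart from the other 7 arrays on the first principal component (22.2 against -10.4 to 5.49). Values without it are given beside several, though not all, of the results it moved.

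No receptor gene passed the test between GW9662 and vehicle. In limma, with p-values adjusted over all 17097 genes by the Benjamini-Hochberg method, 0 of the 8 receptors passed the threshold of 0.05 (adjusted p = 0.997 for each), as did 0% of all genes. By any amount, 4 of the 8 were higher and 4 lower, against 47% and 51.8% of all genes, with a median log2 difference of 0.03, where the median over all genes was -0.005. At an unadjusted p under 0.05 there was 1 of 8 genes, Itgav, on the higher side, where 1.57% of all genes lay on that side. Over all 45037 probe sets tested, 0 of the 20 sets of these genes passed (adjusted p = 0.997 for each), and 3 had an unadjusted p under 0.05, all on the higher side, against 1.81% of all probe sets. These 3 were 2 sets of Itgav and 1 of Itgb1. Sets of 1 gene were read on the same arrays from the same animals and are not separate evidence. The groups overlapped at all 20 sets, while 0.844% of all probe sets were separated on the higher side and 1.06% on the lower side.

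With the replicate number as a block, the count at an unadjusted p under 0.05 was 5 of 20 probe sets, all higher (2.57% of all probe sets), and 2 of 8 genes, Itgav and Itgb1 (2.41% of all genes on the higher side). All 5 sets belonged to these 2 genes, and sets of 1 gene are not separate evidence. No adjusted p passed in that fit either. Without vehicle 4, 0 of 8 genes and 0 of 20 probe sets had an unadjusted p under 0.05. The log2 differences of Itgb1 and Itgav were then 0.13 and 0.17. Without both animals numbered 4, which leaves the other pairs whole, these differences were 0.20 and 0.21. In that setting 1 of 8 genes and 1 of 20 probe sets had an unadjusted p under 0.05, with or without the block, and no adjusted p of a receptor passed. Whether the position of vehicle 4 plays a part in the higher values of Itgav and Itgb1 was not tested beyond leaving it out.

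**Figure D1:**
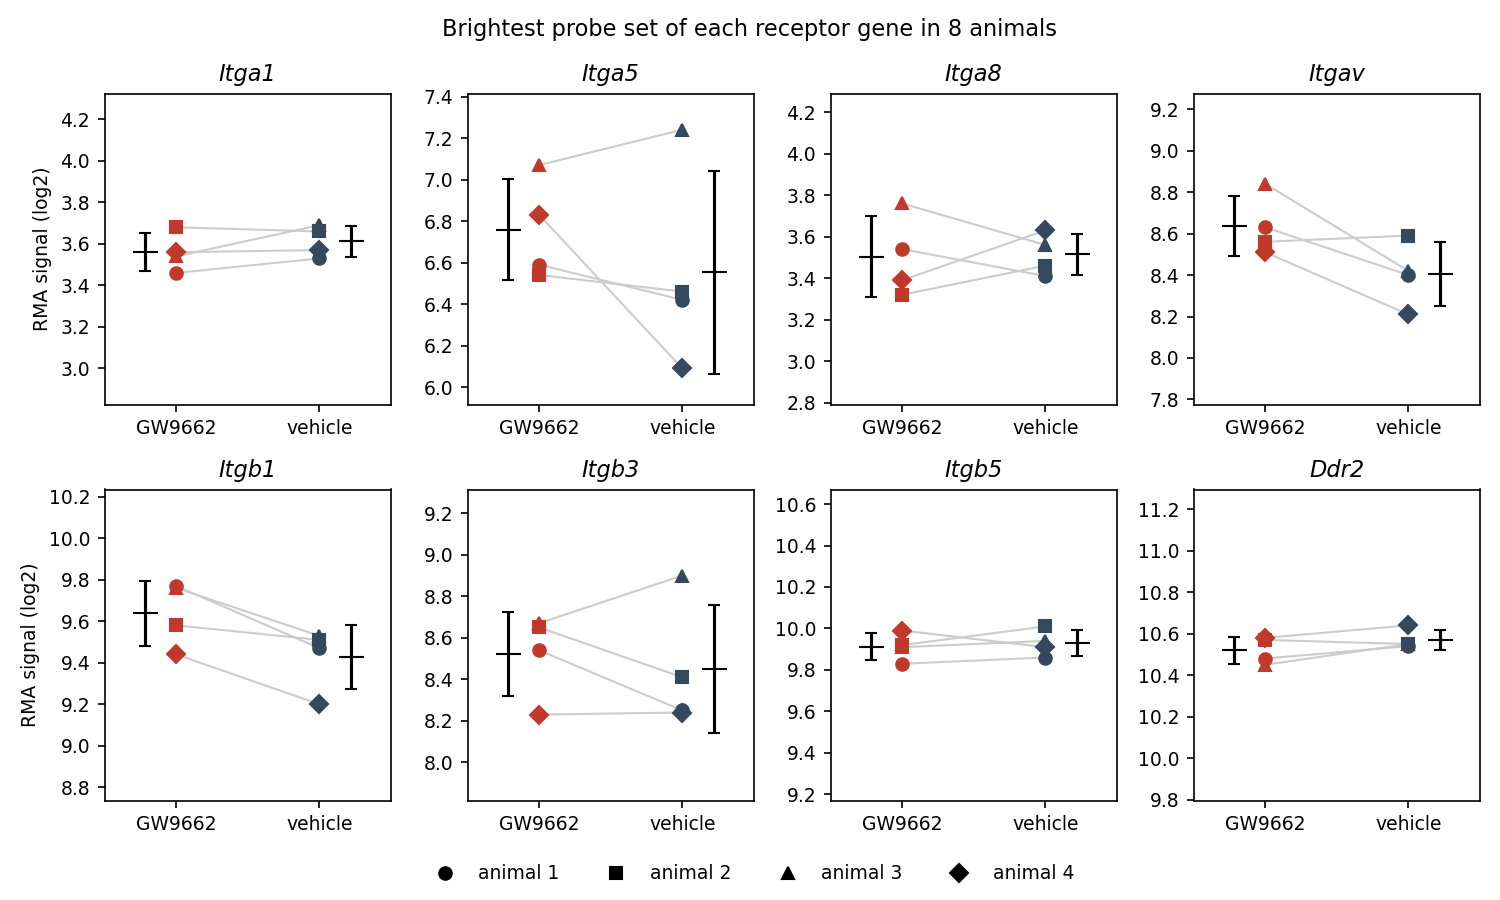
Level of the brightest probe set of each of the 8 receptor genes (RMA signal, log2) in GW9662 animals (red) and vehicle animals (blue), with grey lines joining same-numbered animals and black bars giving the mean and SD of 4 animals. The panels have axes of equal span, and the spread is wide for Itga5 and Itgb3 and narrow for Itgb5 and Ddr2.

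Itgb1 is the beta subunit shared by the collagen receptors and by the main fibronectin receptor. Its brightest probe set stood at 9.77, 9.58, 9.76 and 9.44 in GW9662 samples 1 to 4, against 9.47, 9.51, 9.53 and 9.20 in vehicle samples 1 to 4. GW9662 4 lay below 3 of the 4 vehicle samples, so the groups overlapped, and vehicle 4 was the lowest of all 8. The means were 9.64 ± 0.16 in GW9662 and 9.43 ± 0.15 in vehicle (SD, n = 4 each). The log2 difference was 0.21 ± 0.10 (SE; 95% interval from -0.0097 to 0.43; limma adjusted p = 0.997; exact permutation p = 0.143 over the 70 assignments of samples, of which the smallest possible is 0.0286). Within same-numbered animals Itgb1 was higher in 4 of 4 pairs, by 0.30, 0.07, 0.23 and 0.24. The interval and tests above take no account of these pairs. With the replicate block in limma the SE was 0.067 (unadjusted p = 0.0147, adjusted p = 0.966). Without vehicle 4 the log2 difference was 0.13, and without GW9662 4 it was 0.28.

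The 5 probe sets of Itgb1 fell into 3 bright sets and 2 dim ones. The other bright sets, with mean levels of 8.83 and 7.63, had log2 differences of 0.19 ± 0.091 and 0.17 ± 0.074 (SE; exact permutation p = 0.143 and 0.0857). Both were higher in 4 of 4 pairs. Over the 8 samples they followed the brightest set with Pearson r of 0.94 and 0.80, and sets that share a transcript and an array are not independent. The set at 7.63 is of the kind whose probes can match other sequences too, by its name. The 2 dim sets, with mean levels of 3.38 and 2.85, lay below the array median and had log2 differences of 0.040 and 0.013. The mean of all 5 sets gave a log2 difference of 0.12 for the gene.

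Itgav is the alpha subunit of the vitronectin receptors and of the integrins known to activate latent TGF-beta. Its brightest probe set stood at 8.63, 8.56, 8.84 and 8.51 in GW9662 samples 1 to 4, against 8.40, 8.59, 8.42 and 8.21 in vehicle samples 1 to 4. Vehicle 2 lay within the GW9662 values, and vehicle 4 was again the lowest of all. The means were 8.64 ± 0.15 in GW9662 and 8.41 ± 0.16 in vehicle (SD, n = 4 each), a log2 difference of 0.23 ± 0.10 (SE; 95% interval from 0.016 to 0.44; limma adjusted p = 0.997; exact permutation p = 0.0857). It was higher in pairs 1, 3 and 4, by 0.23, 0.42 and 0.30, and in pair 2 the difference was -0.03. With the replicate block in limma the SE was 0.084 (unadjusted p = 0.0265, adjusted p = 0.966). Leaving out 1 sample at a time gave 0.16 to 0.29, and 0.17 without vehicle 4.

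The probe sets of Itgav differed among themselves. The second brightest stood at 7.67, 7.81, 7.70 and 7.69 in GW9662 samples, against 7.51, 7.68, 7.53 and 7.35 in vehicle samples. The groups overlapped here only through GW9662 1 and vehicle 2, which lay within the last digit of each other. Its log2 difference was 0.20 ± 0.075 (SE; limma adjusted p = 0.997; exact permutation p = 0.0571), and it was higher in 4 of 4 pairs. The third set, at a mean of 5.56, had a log2 difference of 0.073. The sets at means of 5.44 and 3.50 had differences of -0.093 and -0.035, both lower in 3 of 4 pairs. The set at 5.44 did not follow the brightest over the 8 samples (r = -0.31), nor did the set at 3.50 (r = 0.12). When the 5 sets were averaged, the log2 difference of Itgav was 0.075 in place of 0.23. The part of the transcript that each set reads was not used here.

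**Figure D2:**
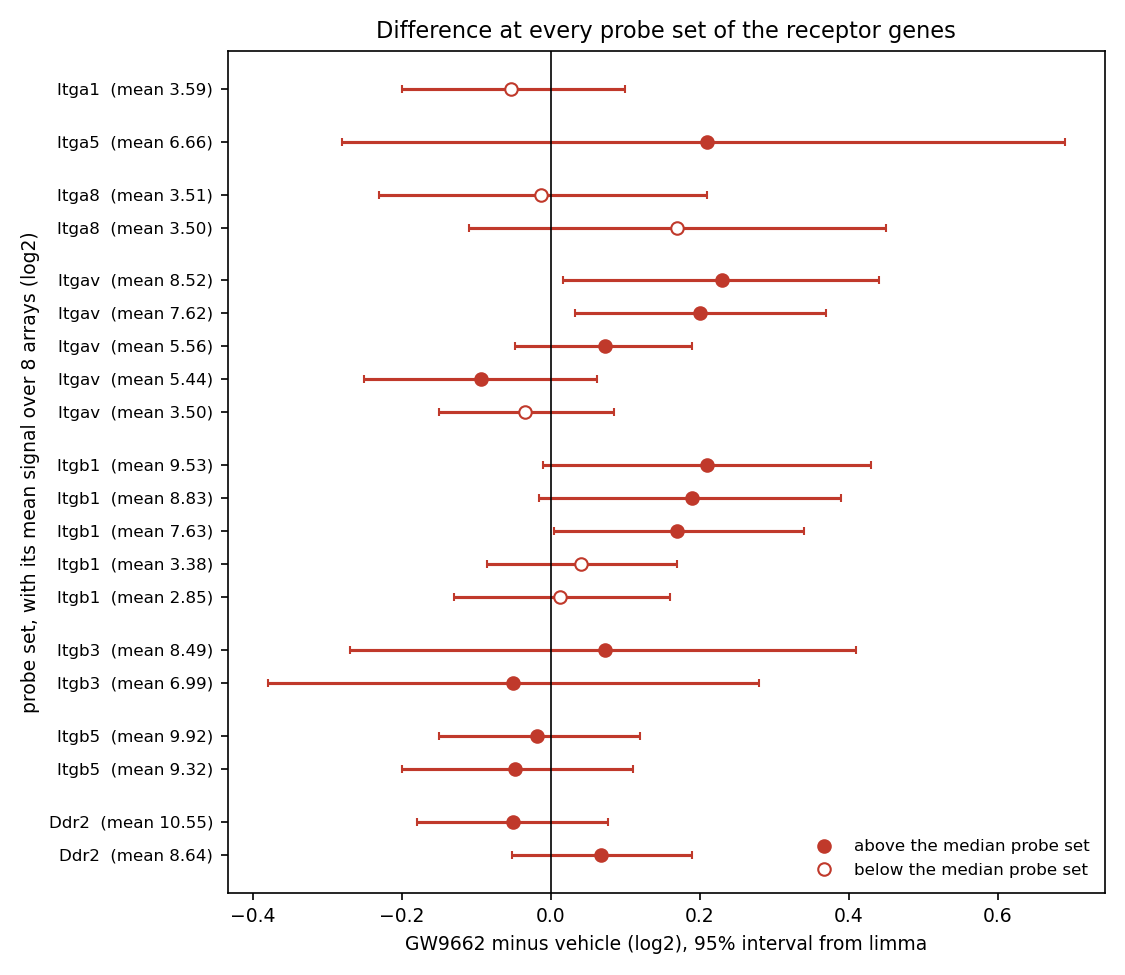
Log2 difference of GW9662 minus vehicle with its 95% interval from limma (4 animals per group) at each of the 20 probe sets, labelled by gene and by mean level over the 8 arrays. Filled points are probe sets above the median over all probe sets, and the intervals of the brightest 2 sets of Itgav and of the Itgb1 set at 7.63 lie above 0.

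Since Itgb1 and Itgav form a receptor together, and their sample values ran alike while those of Ddr2 ran opposite at its brighter set, the promoters of these 3 genes are shown. The sequences are RefSeq's for GRCm38.p6, from 250 bases before to 50 after the start, written 5′ to 3′ on the strand of the gene, with each GGGCGG box (or its reverse complement CCGCCC) in capitals.
Itgb1 (chr8:128685404-128685703, plus strand): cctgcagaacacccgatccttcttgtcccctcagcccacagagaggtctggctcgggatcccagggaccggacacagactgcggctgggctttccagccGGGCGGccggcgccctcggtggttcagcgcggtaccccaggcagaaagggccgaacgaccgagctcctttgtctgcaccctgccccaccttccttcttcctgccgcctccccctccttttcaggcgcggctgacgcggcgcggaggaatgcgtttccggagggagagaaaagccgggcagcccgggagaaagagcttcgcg
Itgav (chr2:83724147-83724446, plus strand): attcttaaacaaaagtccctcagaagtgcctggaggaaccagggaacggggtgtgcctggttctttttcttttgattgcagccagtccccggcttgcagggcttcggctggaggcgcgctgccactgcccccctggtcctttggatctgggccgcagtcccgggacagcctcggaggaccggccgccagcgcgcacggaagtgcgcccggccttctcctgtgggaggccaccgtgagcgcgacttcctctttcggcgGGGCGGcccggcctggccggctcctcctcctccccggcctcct
Ddr2 (chr1:170088895-170089194, minus strand): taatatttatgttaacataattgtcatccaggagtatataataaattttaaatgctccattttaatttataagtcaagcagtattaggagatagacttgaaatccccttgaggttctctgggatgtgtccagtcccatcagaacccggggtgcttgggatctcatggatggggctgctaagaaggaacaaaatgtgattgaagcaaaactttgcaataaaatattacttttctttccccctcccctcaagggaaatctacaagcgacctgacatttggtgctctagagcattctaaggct
Itgb1 and Itgav held 1 GGGCGG box each and had the same GC content (67.3%), while Ddr2 held 0 and had 39% GC. A GGGCGG box on either strand was found in 35.7% of all 32851 promoter windows of this length. Promoter windows were found for 9 of the 10 listed genes, and 4 of the 9 held the box (Itga5, Itgav, Itgb1 and Itgb5). Itga5 held 2 boxes at 58.7% GC and Itgb5 held 3 at 65.7% GC. Over the 8 samples their Pearson r with Itgb1 was 0.55 and -0.33. Whether promoter sequence has any part in how the genes co-varied was not tested. The nuclear receptor motif AGGTCA, which is part of PPARG's element, was in 0 of the 9 windows on either strand, against 16.3% of all windows. The direct repeat of AGGTCA with 1 base of any kind between the copies, which contains that motif, was in 0 of the 9 and in 0.0396% of all windows. The AP-1 motif TGANTCA was likewise in 0 of the 9, against 7.81% of all. These letters were searched in the 300-base windows alone.

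Itga5 is the alpha subunit that with Itgb1 forms the classical fibronectin receptor. It had the widest spread among the 8 genes, 1.15 log2 units from the lowest to the highest sample. Its single named probe set stood at 6.59, 6.54, 7.07 and 6.83 in GW9662 samples 1 to 4, against 6.42, 6.46, 7.24 and 6.09 in vehicle samples 1 to 4. The number 3 animals were the highest of their groups, and vehicle 4 was the lowest of all. The means were 6.76 ± 0.24 in GW9662 and 6.55 ± 0.49 in vehicle (SD, n = 4 each), and the log2 difference was 0.21 ± 0.22 (SE; limma adjusted p = 0.997). Pair 4 alone differed by 0.74, and the other pairs by 0.17, 0.08 and -0.17. With the replicate block in limma the SE was 0.13 (adjusted p = 0.972). Without vehicle 4 the log2 difference was 0.051, and without vehicle 3 it was 0.43, so single animals moved it severalfold. Without both animals numbered 4 it was 0.027.

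Itgb3 pairs with Itgav in the vitronectin receptor and, in platelets, with Itga2b. Its brighter probe set stood at 8.54, 8.65, 8.67 and 8.23 in GW9662 samples, against 8.25, 8.41, 8.90 and 8.24 in vehicle samples. As for Itga5, vehicle 3 had the highest level of all 8. The log2 difference was 0.073 ± 0.15 (SE; 95% interval from -0.26 to 0.41; limma adjusted p = 0.997), with 2 pairs higher and 2 lower. With 1 sample left out it ranged from 0.0025, without vehicle 4, to 0.22, without vehicle 3. The dimmer set followed the brighter over the 8 samples (r = 0.88) and had a log2 difference of -0.050. Of the platelet markers, 1 of 5 measured lay above the median gene, Itga2b itself (7.09 ± 0.21 in GW9662 and 7.06 ± 0.13 in vehicle, SD, n = 4 each). The mean over the platelet list was 4.65 to 4.74 in GW9662 samples and 4.68 to 4.75 in vehicle samples, and Ppbp, the lowest, averaged 3.07.

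**Figure D3:**
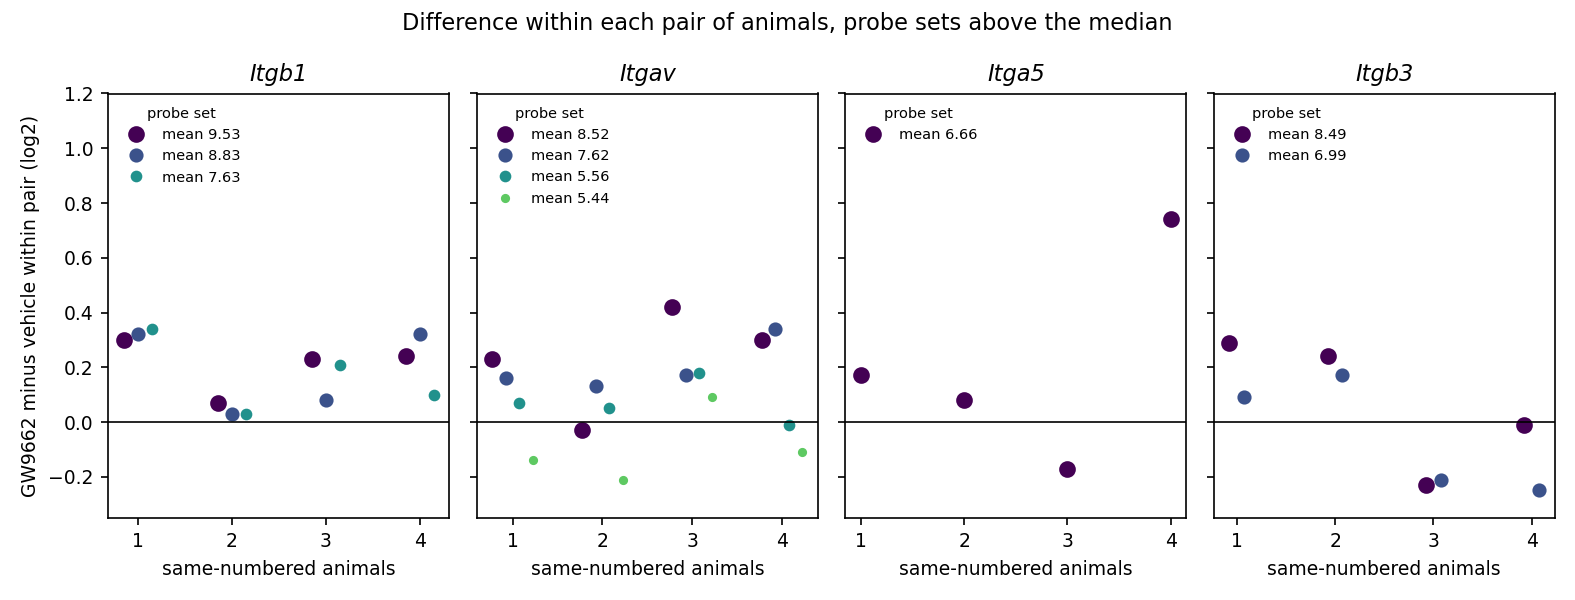
Difference within each pair of same-numbered animals (GW9662 minus vehicle, log2) for Itgb1, Itgav, Itga5 and Itgb3, at the probe sets above the median over all probe sets. The 3 bright Itgb1 sets lie above 0 in all 4 pairs, while the 2 Itgb3 sets lie above 0 in pairs 1 and 2 and below 0 in pairs 3 and 4.

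Itgb5, the other beta partner of Itgav measured here, was nearly the same in every animal. Its brighter probe set stood at 9.83, 9.92, 9.91 and 9.99 in GW9662 samples, against 9.86, 10.01, 9.94 and 9.91 in vehicle samples, a range of 0.18 over all 8. The log2 difference was -0.018 ± 0.062 (SE), with a 95% interval from -0.15 to 0.12 (limma adjusted p = 0.997). The other set, at a mean of 9.32, had a difference of -0.048 ± 0.069 (SE).

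Ddr2, the collagen receptor kinase, had a range of only 0.19 at its brighter probe set. Its levels were 10.48, 10.57, 10.45 and 10.58 in GW9662 samples, against 10.54, 10.55, 10.55 and 10.64 in vehicle samples. Vehicle 4, the lowest sample for Itgb1, Itgav and Itga5, was the highest here. The log2 difference was -0.050 ± 0.059 (SE; 95% interval from -0.18 to 0.082; limma adjusted p = 0.997). It was -0.027 without vehicle 4 and likewise without GW9662 3, and with 1 sample left out it reached at most -0.070 in size, without GW9662 4. The dimmer set, at a mean of 8.64, had a difference of 0.068 ± 0.053 (SE) and did not follow the brighter one over the samples (r = -0.14).

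Itga1, the alpha subunit of a collagen receptor, and Itga8 had probe sets below the array median in all samples. The Itga1 set lay between 3.46 and 3.68 in GW9662 samples and between 3.53 and 3.69 in vehicle samples (log2 difference -0.053 ± 0.068, SE), and the difference ran from -0.093, without GW9662 2, to -0.019, without GW9662 1. The brighter Itga8 set lay between 3.32 and 3.76 in GW9662 samples and between 3.41 and 3.63 in vehicle samples (log2 difference -0.013 ± 0.10, SE). The other Itga8 set had a difference of 0.17 ± 0.13 (SE), with GW9662 3 at 4.00 and the other 7 samples between 3.31 and 3.54. Without detection calls at such signals, a change in transcripts of Itga1 or Itga8 could not be judged. In the mural and smooth muscle list, cells known to carry both subunits, 0 of 6 measured markers lay above the median gene.

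Over the 8 animals, Itgb1 and Itgav ran together. Of the 8 known subunit pairs among the listed genes, 6 could be measured, and their levels were correlated with exact permutation tests adjusted over the 6. The plan had named an adjustment over all 8. The call for Itgb1 with Itgav below holds for the 6 and would not pass 0.05 over the 8. These tests treat the 8 samples as exchangeable and take no account of the groups or of same-numbered animals. For Itgb1 with Itgav, Pearson r was 0.89 (exact permutation p = 0.00675, adjusted p = 0.0405) and Spearman rho was 0.81 (exact p = 0.0218, adjusted p = 0.131). Adjusted over all 28 pairs of the measured genes, the exact permutation p of this r was 0.0944, so the call depends on the set of pairs. Without GW9662 1 and vehicle 4, the 2 samples farthest from the Itgb1 median, r was 0.86 (n = 6, exact permutation p = 0.05, adjusted p = 0.283). Without vehicle 4 alone, r was 0.78 (n = 7, exact p = 0.0302, adjusted p = 0.181). The other samples were left out in turn after the values were seen. Over all 8 such omissions r lay between 0.78 and 0.92 and the adjusted exact p between 0.0488 and 0.181, and 1 of the 8, that of vehicle 2, kept the call. With the probe sets of each gene averaged, r was 0.73 (exact p = 0.0386, adjusted p = 0.232). With each group centred on its mean, r was 0.81, and over the 4 pair differences it was 0.75. A batch of 2 same-numbered animals holds too few samples for a correlation of its own.

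The remaining pairs had no call. For Itgb1 with Itga5, r was 0.55 (exact permutation p = 0.155, adjusted p = 0.466) and rho 0.52 (exact p = 0.197). For Itgav with Itgb3, r was 0.41 (exact permutation p = 0.314, adjusted p = 0.629), and for Itgav with Itgb5 it was 0.01 (exact p = 0.981). Itgb1 with Itga1 and with Itga8, both dim, had r of -0.25 and 0.18 (exact permutation adjusted p = 0.801 for each). Single samples moved these values. Without vehicle 4, r was 0.19 for Itgb1 with Itga5, 0.68 for Itgb1 with Itga8, -0.46 for Itgb1 with Itga1, 0.21 for Itgav with Itgb3 and -0.06 for Itgav with Itgb5. Over all omissions of 1 sample, r ran from 0.19 to 0.72 for Itgb1 with Itga5, from -0.29 to 0.68 for Itgb1 with Itga8, from -0.46 to 0.11 for Itgb1 with Itga1, from 0.21 to 0.78 for Itgav with Itgb3 and from -0.11 to 0.20 for Itgav with Itgb5. The highest value of Itgav with Itgb3 and of Itgb1 with Itga5 was that without vehicle 3. Without the 2 farthest samples, r was 0.41 for Itgb1 with Itga5, 0.76 for Itgb1 with Itga8, -0.10 for Itgb1 with Itga1, -0.03 for Itgav with Itgb3 and 0.03 for Itgav with Itgb5. Over the 4 pair differences, r was 0.20 for Itgb1 with Itga5, 0.45 for Itgb1 with Itga8, -0.56 for Itgb1 with Itga1, -0.78 for Itgav with Itgb3 and 0.58 for Itgav with Itgb5.

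Itgav was not among the genes closest to Itgb1. Among 8545 genes above the median level, with groups centred, Itgav was the 325th most like Itgb1, and Itgb1 the 126th most like Itgav (r = 0.813, n = 8). The 5 most like Itgb1 were Smap1, Sertad4, Ctnnb1, Ahcyl1 and Rab31, with r from 0.968 to 0.989. Ctnnb1, which encodes beta-catenin of cell junctions, stood at 10.17 ± 0.14 in GW9662 and 10.04 ± 0.11 in vehicle (SD, n = 4 each), with vehicle 4 lowest of all at 9.87. The 5 most like Itgav were Egflam, Ppat, Gria3, Ankrd50 and Cstf1, with r from 0.948 to 0.972. Egflam, a matrix protein also called pikachurin, had its highest level, 7.17, in GW9662 3, the sample in which Itgav was also highest. All these values share 8 arrays, and vehicle 4 is lowest of all 8 in each of the 10 genes. Without vehicle 4, the same 5 genes lay 3rd to 18th in likeness to Itgb1 (r from 0.945 to 0.981) and 8th to 22nd in likeness to Itgav (r from 0.927 to 0.964), and Itgav was 611th for Itgb1 (r = 0.684).

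Ddr2 ran opposite to Itgb1 at its brighter set, a pair examined after the values were seen. Over the 28 pairs of the 8 measured genes, r was -0.94 for Itgb1 with Ddr2 (exact permutation p = 0.00322, adjusted p = 0.0903) and rho was -0.75 (exact p = 0.0361, adjusted p = 0.343). Without vehicle 4 it was -0.89, and without GW9662 1 as well it was -0.86. The dimmer Ddr2 set gave r of 0.35 with Itgb1 (exact permutation p = 0.401) and rho of 0.13 (exact p = 0.761). Of the 28 pairs, 17 had a positive r and 11 a negative one, and 0 passed after adjustment over the 28.

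**Figure D4:**
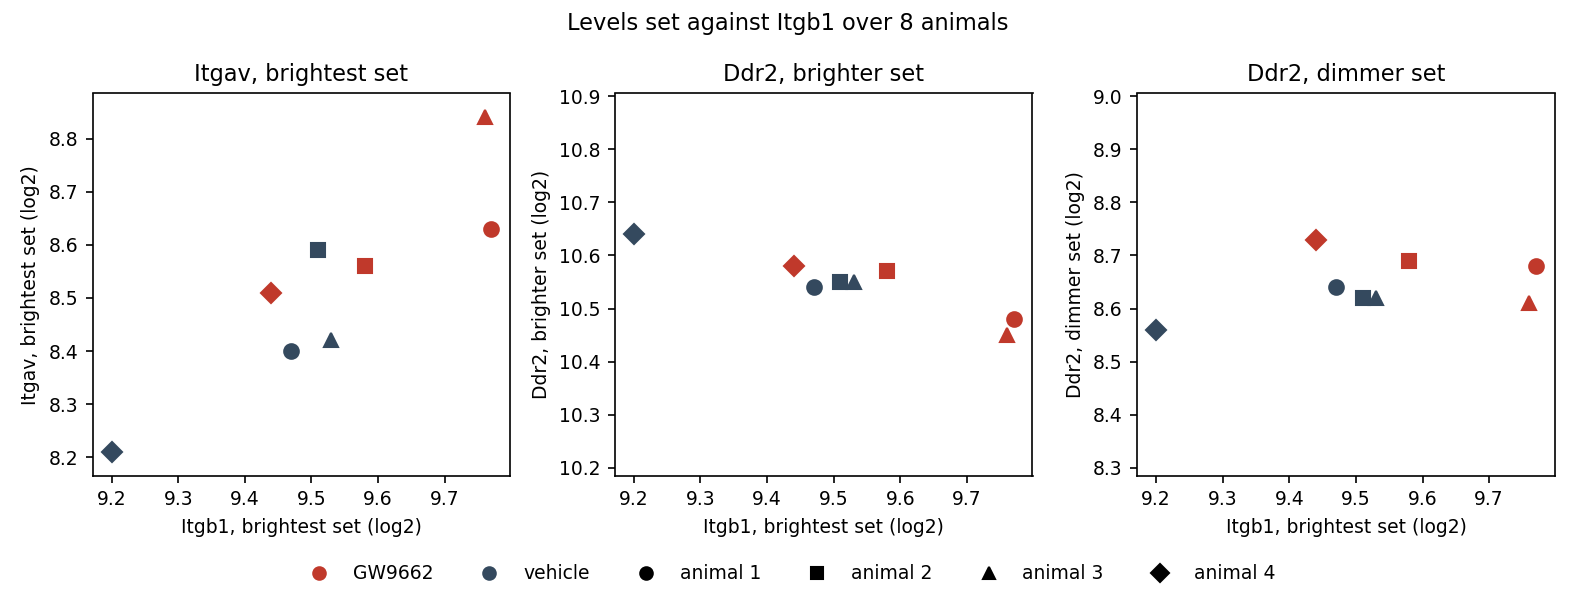
Level of the brightest Itgav set and of both Ddr2 sets (y axes, log2, of equal span) against the brightest Itgb1 set (x axis, log2) in GW9662 animals (red) and vehicle animals (blue), with marker shapes for the animal number. Itgav is high where Itgb1 is high, the brighter Ddr2 set runs the other way within a narrow range, and the dimmer Ddr2 set shows no such order.

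None of the other integrins passed the test. Of 19 genes, being the remaining subunits and Ddr1, 18 were measured, with 9 higher and 9 lower by any amount and a median log2 difference of -0.0013. In limma 0 passed, and 0 had an unadjusted p under 0.05, against 3.38% of all genes. The 3 of smallest p were Itgax, a myeloid subunit, at 0.083 ± 0.071, Itga9, which binds tenascin-C, at -0.068 ± 0.064, and Itgb2l at -0.065 ± 0.064 (log2 difference, SE). Itgb4 and Itga6, the subunits of the keratinocyte hemidesmosome, had differences of 0.080 ± 0.17 and -0.030 ± 0.066 (SE).

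Inside the cell, integrin tails are bound by talin, kindlin, paxillin and other adaptors of focal adhesions. Of 30 such genes, 27 were measured, with 15 higher and 12 lower and a median log2 difference of 0.033, and 0 had an unadjusted p under 0.05 in limma, against 3.38% of all genes. With the replicate block 1 had one, Zyx, on the lower side, against 2.42% of all genes. Zyx, zyxin of stress fibre ends, stood at 9.05, 9.19, 9.20 and 9.26 in GW9662 samples, against 9.38, 9.09, 9.43 and 9.63 in vehicle samples. It was lower in 3 of 4 pairs, with a log2 difference of -0.21 ± 0.11 (SE; limma adjusted p = 0.997; exact permutation p = 0.114). Pxn, paxillin, stood at 7.34 ± 0.09 in GW9662 and 7.48 ± 0.11 in vehicle (SD, n = 4 each), a log2 difference of -0.14 ± 0.073 (SE), also lower in 3 of 4 pairs. Tns3, a tensin, had a difference of 0.24 ± 0.16 (SE). The signs of Zyx and Pxn were opposite to those of Itgb1 and Itgav. The adaptors of highest level, Src and Tns1, had differences of 0.033 and 0.035.

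Among ligands of these receptors, 20 of 24 genes were measured, 11 higher and 9 lower, with a median log2 difference of 0.0075. In limma 0 had an unadjusted p under 0.05, and 3 higher and 1 lower had one with the replicate block, against 2.41% and 2.42% of all genes in that fit. The 3 of smallest p were Tgfb1, Postn and Col5a2, with log2 differences of -0.28 ± 0.13, 0.61 ± 0.29 and 0.31 ± 0.15 (SE). Their limma adjusted p was 0.997 each. These SEs do not use the pairs. With the replicate block in limma they were 0.10, 0.24 and 0.092, with an adjusted p of 0.966 each. In the count with the block, Tgfb1 was the 1 lower, and Postn and Col5a2 were among the 3 higher. Tgfb1, whose latent form is bound by Itgav integrins, stood at 5.77, 5.70, 5.91 and 5.92 in GW9662 samples, against 5.69, 6.19, 6.38 and 6.15 in vehicle samples, and vehicle 1 lay below all 4 GW9662 samples while the other 3 vehicle samples lay above them. Postn, periostin, which binds Itgav integrins, was higher in 3 of 4 pairs and differed by -0.43 in pair 4. Col5a2 was higher in 4 of 4 pairs, by 0.45, 0.23, 0.53 and 0.03. The ligand chains of highest level, Col1a1 and Col3a1, had log2 differences of 0.065 ± 0.081 and 0.078 ± 0.087 (SE), with limma adjusted p = 0.997 for each. As in all bulk samples, fewer cells of a type and less RNA per cell cannot be told apart in any of these values.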

How the data were processed

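Values were read from the series' array table, 8 samples with 45141 probe sets each. Per the submitters' processing notes the authors used RMA and the affy package, versions not given in the sources used here. The deposited values are log2 signals with 2 decimals. The log base was read from their range, 2.44 to 12.96. Each of the 8 value columns belonged to 1 sample.

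GEO's platform annotation, updated by gene ID through a RefSeq table, gave the genes. A single gene was named by 28898 probe sets, 551 named several and were not used, and 15692 had no name here. For 7180 genes with several sets, the brightest on average was taken, giving 17097 genes. Separately, all 45037 probe sets other than the 104 controls were tested.

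GW9662 minus vehicle was tested two-sided and without covariates by lmFit and eBayes (limma 3.58.1, R 4.3.3) and adjusted by Benjamini-Hochberg over all genes or all probe sets, threshold 0.05. The number of arrays limits the precision. The procedure was tested on simulated data. Single levels were also tested by an exact two-sided permutation test (70 ways to place 8 arrays in the groups), and correlations over all 40320 pairings of 8 samples. The named genes were all members, the 3 of smallest p and 2 of highest level in each context list, and the 5 genes most like Itgb1 and Itgav. Itgb4, Itga6 and genes of the marker lists are named outside this rule. Members and lists were chosen with earlier results of these data known.

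The design text says 1 animal of each group was taken per day. After group means were removed, the animals sharing numbers 1 to 4 correlated at 0.203, 0.163, 0.114 and 0.165 across genes, and in 8 of 8 cases the own number gave the best match, so numbers were read as pairs. The labels do not say whether 1 array's RNA came from 1 extraction. The main limma p-values set each difference against the spread of these samples within their groups and do not use the pairs. Alternatives were the replicate block, variance moderation, a filter on dim genes, the mean of probe sets, scaling, array weights and left-out samples.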

Additional observations from a re-analysis of the deposited data

Results flagged for a closer look

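Among the groups of 4 samples at the 20 receptor probe sets, 2 of 40 held 1 sample far from the other 3 by Dixon's test, and chance gives about 1 in 20. At the dimmer Itgb3 set, GW9662 4 stood at 6.55 and the other GW9662 samples at 7.07 to 7.14. At the brighter Ddr2 set, vehicle 4 stood at 10.64 and the other vehicle samples at 10.54 to 10.55. Among genes most like Itgb1, vehicle 4 was far below its group at Smap1 (8.42 against 8.56 to 8.57), Sertad4 (5.97 against 6.73 to 6.86) and Ctnnb1 (9.87 against 10.08 to 10.11). Among genes most like Itgav, GW9662 3 was far above its group at Egflam (7.17 against 6.46 to 6.54) and Ppat (5.87 against 5.56 to 5.61). In all, 7 of 88 groups of samples were set apart in this way, and those 5 genes were picked for following Itgb1 or Itgav, so their flags are not separate from it.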

How the results depend on the processing

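No receptor gene or probe set passed the threshold under any of the 17 alternatives at gene level or 16 at probe set level, and the lowest adjusted p of a member gene was 0.841. Over all genes the count was likewise 0, except for 1 gene without the animals numbered 4 with the replicate block. Array weights at probe set level were added after the data were seen. Of 134 recomputed differences of the 8 genes, 123 kept their sign. The 11 that turned belong to Itga8, Itgb5 and Ddr2. Itga8 (-0.013) was at 0.078 with its sets averaged, 0.033 with array weights, 0.063 without the animals numbered 4, with and without the replicate block, and -0.10 to 0.048 with 1 sample left out. Itgb5 was at -0.043 to 0.01 with 1 sample left out, and Ddr2 (-0.050) at 0.0088 with its sets averaged.

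Genes at an unadjusted p under 0.05 numbered 1 in the main test, 2 with the replicate block and 0 with the mean of all probe sets. They numbered 1 without the animals numbered 4, with or without that block, and 0 to 2 with 1 sample left out. Probe sets numbered 3 in the main test, 5 with the replicate block, 1 without the animals numbered 4 with or without that block, and 0 to 4 with 1 sample left out. The replicate block changed no adjusted call among the receptors.

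Among the 6 measured subunit pairs, the 1 called fell to 0 with the mean of all probe sets and without the 2 farthest samples. The count was 0 to 1 with 1 sample left out. Adjusted over the 8 planned pairs, that pair would not have been called in the main setting. The sign of Itgav with Itgb3 turned to -0.03 without its 2 farthest samples and to -0.78 within the replicate block, and Itgav with Itgb5 turned without vehicle 1, 2 or 4. With 1 sample left out, r ran from -0.11 to 0.20 for Itgav with Itgb5, from -0.46 to 0.11 for Itgb1 with Itga1 and from -0.29 to 0.68 for Itgb1 with Itga8. The cause of these changes was not tested. The dim signal of Itga1 and Itga8 limits what could be seen of them.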
